A study of Mus musculus with 4 samples.

Results

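Nucleus pulposus-like cells, the notochord-derived cells at the core of the disc, were examined in 4 droplet single-cell RNA sequencing libraries of mouse tail intervertebral discs. A cell was taken as one of them when its barcode had at least 250 detected genes and held a UMI, a count of 1 distinct transcript molecule, of at least 2 of the 5 genes T, Car3, Serpina1e, Inmt and Tmem255a. It also had to hold no UMI of Ctrb1, Try5, Cpb1, Cela2a or Epcam, genes of pancreas and epithelium, and no limit was set on its mitochondrial share. Of 3846 barcodes with enough genes, 196 held one of the 5 exclusion genes, and 101 of the remaining 3650 met the rule. The cells were thus chosen by their UMI counts of the 5 genes, and the values of these genes are given as a description without a test. Wildtype female C57BL/6 mice of 12 weeks were used throughout. The injured group held discs punctured on both sides with a 30G needle 7 days earlier, and the control group held unpunctured discs of the same animals. Control discs lay at more distal tail levels than injured discs, so tail level and puncture cannot be told apart. Each group had 2 libraries, 1 per round, and the labels give 6 mice and 30 discs pooled per group without saying whether this holds for each round. Cells had been snap frozen and, after thawing, sorted to keep viable ones. Since discs of several mice were pooled, rounds measure the spread between pools and not between animals.

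The nucleus pulposus is the hydrated core of the disc and descends from the embryonic notochord. Its notochordal cells are known for the T-box transcription factor T (brachyury), for keratins of simple epithelia and for large vacuoles, and they hold water in an aggrecan-rich matrix. The annulus around them is fibrocartilage, whose cells make fibrillar collagens and small leucine-rich proteoglycans.

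The 4 libraries held between 1114210 and 16972879 UMIs and between 353 and 1807 cells after the exclusion step. The deposited matrix of control round 1 listed well-filled barcodes only, and the other matrices listed 1194644 or more barcodes each, so the RNA of near-empty barcodes could be read in 3 libraries. In the round 1 libraries 140 of the 353 control cells shared a barcode with a well-filled injured barcode. None of the 24 nucleus pulposus-like cells of control round 1 was among these, whereas 44 of the 175 comparison cells described below were. Named genes whose call was lost without the shared barcodes are marked as such.

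The cells were found mainly in the control libraries. They numbered 24 of 353 cells in control round 1, a share of 6.80% (exact Clopper-Pearson 95% interval 4.40 to 9.95). Without the cells of shared barcodes they were 24 of 213 there, or 11.3% (7.35 to 16.3). In control round 2 they numbered 71 of 751, or 9.45% (7.46 to 11.8). Injured round 1 held 4 of 739, or 0.541% (0.148 to 1.38), and injured round 2 held 2 of 1807, or 0.111% (0.0134 to 0.399). This gave a mean of 8.13% ± 1.88 (SD, n = 2) for the control libraries. The injured libraries had a mean of 0.326% ± 0.305 (SD, n = 2). Both control libraries were above both injured ones, and the intervals, which cover counting error only, did not overlap between groups. The rule was proposed with this difference known, and an exact permutation test on 2 libraries per group cannot go below 0.33, so no test is given. Fewer cells of this type in the pool and less RNA of the 5 genes per cell cannot be told apart here.

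The share changed with the depth and the mitochondrial share allowed. The median mitochondrial share of nucleus pulposus-like cells was 33.2% and 46.0% in control rounds 1 and 2, 61.4% in injured round 1 and 11.4% in injured round 2. Over all cells after the exclusion step it was 2.60%, 6.00%, 2.70% and 4.44% in the same order. Only cells under 25% mitochondrial UMIs gave shares of 1.83% and 2.11% in the control libraries, 0 of 691 cells in injured round 1, which allows a share of up to 0.434% by a floor of 3 counts (exact upper bound 0.532%), and 0.116% in injured round 2. With each cell thinned to 500 UMIs, and 0, 252, 63 and 60 shallower cells left out, the shares were 3.68%, 8.42%, 0.296% and 0.0572%, where the same cells before thinning stood at 6.80%, 14.2%, 0.592% and 0.114%. With at least 3 of the 5 genes required, they were 4.25%, 5.06%, 0.271% and 0 of 1807 cells, which allows up to 0.166% by that floor (exact upper bound 0.204%). In each of these versions both control libraries stayed above both injured ones. Of the 13 control round 2 cells under 25% mitochondrial UMIs, 10 held at least 2 of 6 annulus and cartilage genes given below. Only 1 of the 13 held at least 3 of the 5 rule genes. In control round 1 these were 1 and 4 of 6 cells. The share under 25% in control round 2 thus came mostly from cells that also held annulus or cartilage RNA. As a background of free RNA, 0 of 8, 0 of 6, 0 of 39 and 0 of 20 endothelial cells and 1 of 11, 0 of 15, 0 of 47 and 0 of 95 macrophages met the rule in the same order. Their median depths were 3605.5, 749.5, 3690 and 2353 UMIs for endothelial cells and 690, 548, 3335 and 3396 UMIs for macrophages. In the small control groups of 6 to 15 such cells, a count of 0 allows a share of 20% or more, so the background of control cells was poorly bounded. Of the mural cells, 1 of 4 and 2 of 5 met the rule in the control libraries, and 0 of 18 and 0 of 38 in the injured ones, at median depths of 4888, 1691, 5603 and 6106.5 UMIs. With so few control cells of this type, the control shares were not shown to lie above that background.

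**Figure D1:**
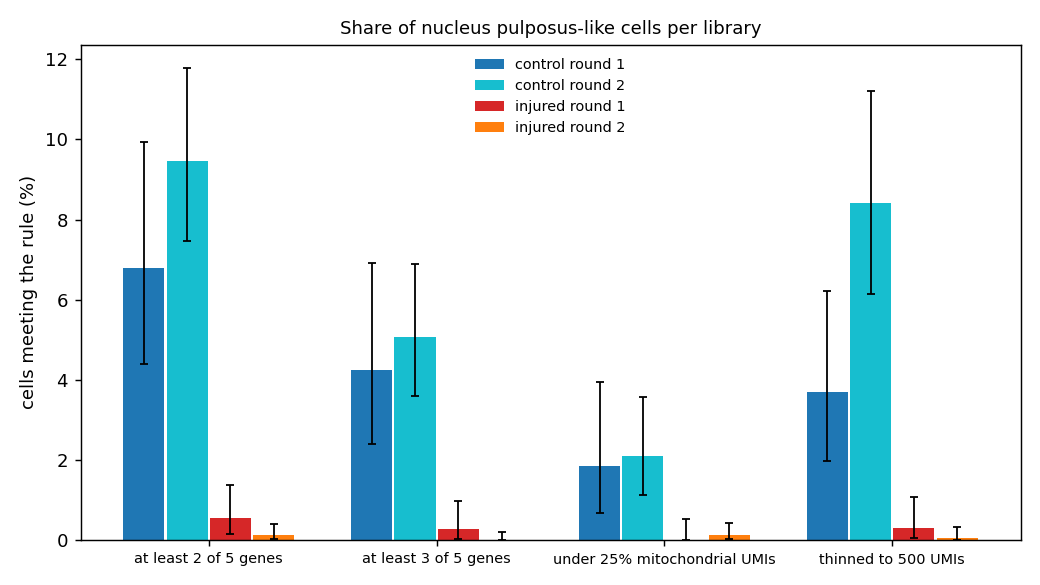
Share of cells (%, vertical axis) that met the nucleus pulposus rule in each of the 4 libraries, with the reported rule on the left and 3 other settings beside it. Bars are the measured shares and lines are exact 95% binomial intervals. Under the reported rule the control bars stand at 6.80% and 9.45% and the injured bars at 0.541% and 0.111%.

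The nucleus pulposus-like cells were shallow and rich in mitochondrial RNA. Their median depth was 1241 and 1683 UMIs in control rounds 1 and 2, with medians of 407 and 383 detected genes. The comparison cells of the annulus and cartilage type had 3726 and 4778 UMIs and mitochondrial shares of 2.46% and 7.52%. Of the 101 cells, 36 had over 50% mitochondrial UMIs, 21 had under 25% and 13 had under 10%. In control round 1, the 4 cells with under 10% mitochondrial UMIs and at least 3 of the 5 genes had 3096 to 11969 UMIs each. These 4 cells held 51.2% of all UMIs of the 24 cells and 42 of the 59 UMIs of T. Control round 2 had 1 such cell, with 745 UMIs, or 0.460% of the UMIs of its 71 cells. The long nuclear RNA Malat1 was at 35190 and 22550 CPM (UMIs per 1000000 nuclear-encoded UMIs) in control cells under 25% mitochondrial UMIs. It was at 9224 and 10520 in those at 25% or more. In control round 2, 10 of the 13 cells under 25% held at least 2 annulus or cartilage genes, against 4 of the 58 others. The groups there thus differed in more than their mitochondrial share.

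**Figure D2:**
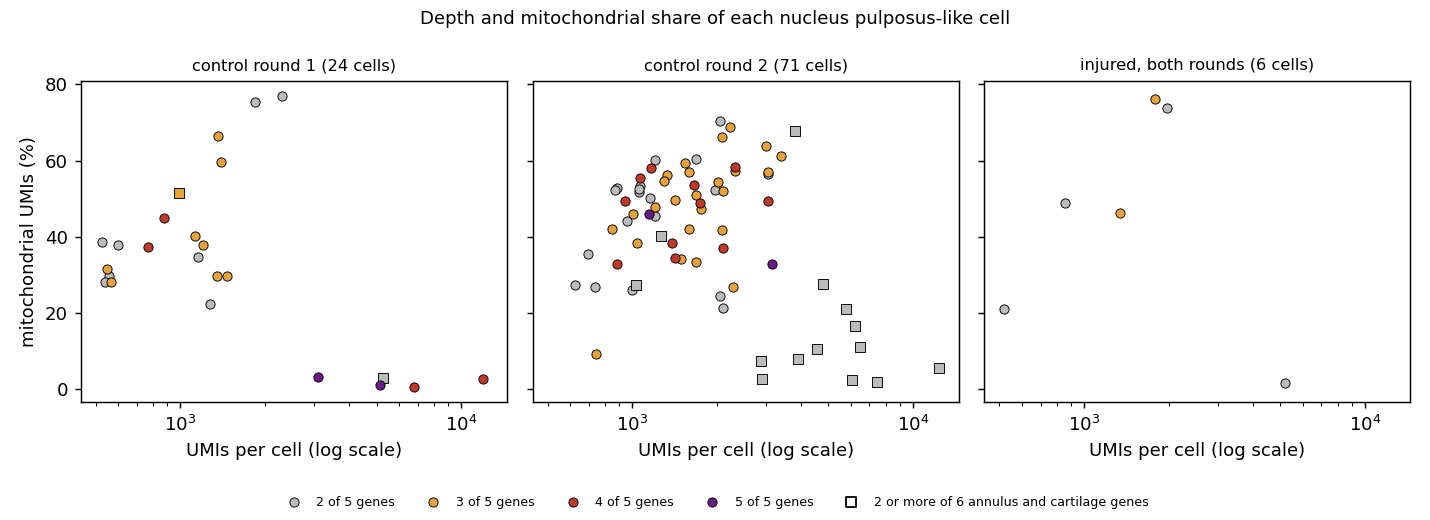
Each point is 1 nucleus pulposus-like cell, with its UMIs on the horizontal log axis and its mitochondrial share (%) on the vertical axis, in control round 1, control round 2 and both injured libraries. Colour gives how many of the 5 genes had a UMI, and squares mark the 16 cells that also held at least 2 of 6 annulus and cartilage genes. The deep cells of low mitochondrial share in round 2 are mostly squares, while 4 of those in round 1 carried 4 or 5 of the 5 genes.

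T (chr17:8434423-8442496, plus strand, mm10), the transcription factor that defines the notochord, had 59 UMIs in 18 of the 24 cells of control round 1 and 37 UMIs in 28 of the 71 cells of control round 2. In injured round 1 it had 2 UMIs in 2 cells, and in injured round 2 none. It was thus held by a larger share of the round 1 cells, although they were fewer. Car3 (chr3:14863512-14872523, plus), a carbonic anhydrase, was the gene most often behind the choice, with 533 UMIs in 23 of 24 cells and 1056 UMIs in all 71. Serpina1e (chr12:103946931-103958975, minus) encodes a serine protease inhibitor of the alpha-1 antitrypsin family, whose near-identical copies make its reads uncertain. It had 76 UMIs in 17 cells and 124 UMIs in 56 cells of the control libraries. Inmt (chr6:55170626-55175043, minus), an indolethylamine methyltransferase, had 7 UMIs in 6 cells and 39 UMIs in 26 cells. Tmem255a (chrX:38196573-38252439, minus), a membrane protein, had 25 UMIs in 7 cells and 16 UMIs in 14 cells. The pair held together most often was Car3 with T in round 1, in 17 of 24 cells, and Car3 with Serpina1e in round 2, in 56 of 71 cells. The median mitochondrial shares behind these counts were 33.2% and 46.0%.

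At the edge of the rule, 46 cells held exactly 2 of the 5 genes and 157 cells held exactly 1. The 9 cells with 2 genes in control round 1 had a median of 5 Car3 UMIs and a mitochondrial share of 34.8%, and 6 of them held Krt8. The 17 cells with 1 gene had a median of 1 Car3 UMI and a share of 2.84%, and 4 of them held Krt8. In control round 2, the 33 cells with 2 genes had a median of 7 Car3 UMIs and a share of 27.8%, against 1 UMI and 13.5% in the 88 cells with 1 gene. There, 15 of the 33 and 7 of the 88 held Krt8.

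A subset of the cells carried annulus or cartilage RNA as well. At least 2 of Fmod, Comp, Prelp, Chad, Cnmd and Aspn had a UMI in 2 of the 24 cells of control round 1, in 14 of the 71 of control round 2 and in none of the 6 injured cells. The 14 had a median of 4660 UMIs and 10.9% mitochondrial UMIs, and none of them held 3 of the 5 genes. They held 59 of the 1056 Car3 UMIs and 2 of the 37 T UMIs of their library, but 601 of its 607 UMIs of Dcn, the gene of the proteoglycan decorin. In the other 57 cells the median was 1496 UMIs with 49.6% mitochondrial UMIs, and Krt8, a keratin, was held by 39 cells against 4 of the 14. Doublets were not removed, and the part of doublets or free RNA in these 14 cells was not tested.

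RNA of the rule genes was also present outside cells. Barcodes of 1 to 100 UMIs, which hold free RNA and debris, had Car3 at 3338 CPM in control round 2 (95% Poisson interval 3258 to 3419), at 92.6 (76.1 to 112) in injured round 1 and at 372 (344 to 402) in injured round 2. The level in control round 2 was thus 36.0 and 8.97 times that in the injured libraries. For T the ratios were 15.6 and 8.36, for Krt19 9.48 and 7.73, and for Hopx 17.4 and 4.91. For the annulus gene Fmod they were 1.04 and 0.981, and for the cartilage collagen Col2a1 0.403 and 0.355. For Krt8 the ratios were 1.90 and 4.61, and for Krt18 0.539 and 1.81. The mitochondrial share of these barcodes was 55.9% in control round 2, 21.2% in injured round 1 and 52.1% in injured round 2. In control round 2 the nucleus pulposus-like cells held Car3 at 3.00 times, T at 3.34 times, Krt8 at 2.53 times and Krt19 at 1.95 times the free level, and the comparison cells held Car3 at 0.0164 times the free level. For Krt18, with 13 UMIs, the cells stood at 123 CPM (95% Poisson interval 65.6 to 211) against 102 in the free RNA (88.0 to 117), so a difference was not detectable at this depth.

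**Figure D3:**
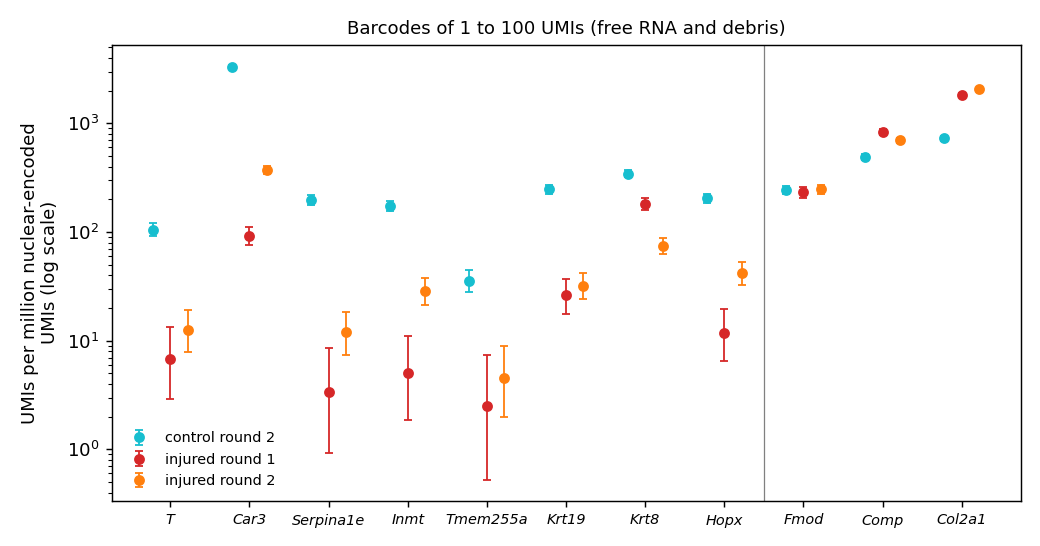
Level of 11 genes (CPM, UMIs per 1000000 nuclear-encoded UMIs, log vertical axis) in barcodes of 1 to 100 UMIs in the 3 libraries that list them. Points are levels and lines are exact 95% Poisson intervals. Car3 stands at 3338 in control round 2 against 92.6 and 372 in the injured libraries, while the annulus gene Fmod lies at like levels in all 3.

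Expression outside the 5 genes was compared with that of annulus and cartilage-like cells of the same control libraries. These comparison cells held at least 2 of Fmod, Comp, Prelp, Chad, Cnmd and Aspn, did not meet the nucleus pulposus rule, and numbered 175 and 273. UMIs were summed per library and cell class and tested with edgeR, with library as a block, over 5891 genes. The 16 genes of the cell rules and all mitochondrially encoded genes were left out of the sums, so a level means CPM over the remaining nuclear-encoded UMIs. Mitochondrial UMIs were 19.5% and 33.7% of the summed UMIs of nucleus pulposus-like cells in rounds 1 and 2, against 2.85% and 7.25% for the comparison cells. At an adjusted p under 0.05, 65 genes were called, or 1.1%: 54 genes were higher in nucleus pulposus-like cells, or 0.917% of those tested, and 11 were lower, or 0.187%. The median log2 fold change of all genes tested was -0.09. The injured libraries, with 4 and 2 such cells, were too small for this comparison.

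Keratins of simple epithelia, the filament proteins of notochordal cells, were among the largest differences. Krt19 (chr11:100140810-100148665, minus) was at 887 in round 1 and 484 in round 2 in nucleus pulposus-like cells, and at 0 and 1.44 in comparison cells, a log2 fold change of 9.13 ± 0.85 (SE, edgeR adjusted p = 4.82e-10). It was held by 7 of 24 and 30 of 71 cells. Krt8 (chr15:101996698-102004482, minus) was at 1271 and 872 against 1.35 and 2.88, a log2 fold change of 8.71 ± 0.84 (edgeR adjusted p = 5.57e-10). Its pairing partner Krt18, which lies beside it on chromosome 15 (chr15:102028180-102032027, plus), was at 216 and 123 against 0 and 2.16, a log2 fold change of 6.65 ± 0.91 (edgeR adjusted p = 1.27e-06), with its round 2 level in the cells near that of the free RNA. Dsp (chr13:38151294-38198577, plus), the desmosome protein desmoplakin that anchors keratin filaments, was at 312 and 94.8 against 0 and 1.44, a log2 fold change of 7.14 ± 0.95 (edgeR adjusted p = 1.01e-06). Krt19 and Hopx were known markers of these cells from earlier results on the same data, so their calls are not independent support. Against all other cells instead of annulus and cartilage-like cells, Krt18 was no longer called (log2 fold change 1.83, edgeR adjusted p = 0.141). Krt8, Krt19 and Dsp were still called there, at 3.90, 5.81 and 5.67, so the size of these differences depended on the comparison cells.

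Of 14 keratin and junction genes, 9 could be tested, 4 of them passed and were higher, against 0.917% of all genes, and the median log2 fold change was 2.01. The intermediate filament gene Vim was at 8750 and 4038 against 1088 and 1910 and did not pass (log2 fold change 2.01, edgeR adjusted p = 0.422). It was called higher against comparison cells limited in depth, a version given with the fibrous genes (2.03, edgeR adjusted p = 0.0419), where 5 of 8 genes of the list were called higher, against 1.63% of all genes. Tjp1, a tight junction scaffold, and Gja1, a gap junction channel, had log2 fold changes of -1.47 and -0.75 and did not pass either.

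The 20 notochord and nucleus pulposus genes outside the rule included those 3 keratins and showed a divided picture. Of the 20, 13 had enough UMIs to be tested, 4 passed, all higher (Krt8, Krt18, Krt19 and Hopx), against 0.917% of all genes, and the median log2 fold change was 1.19. Hopx (chr5:77086988-77115121, minus), a homeodomain-only protein that acts as a transcriptional cofactor, was at 599 and 569 against 6.77 and 7.91, a log2 fold change of 6.26 ± 0.68 (edgeR adjusted p = 1.45e-08). It was held by 8 of 24 and 37 of 71 cells. The surface protein gene Cd24a was at 2278 and 493 against 554 and 378 and did not pass (log2 fold change 1.19 ± 0.62, edgeR adjusted p = 0.782). Basp1, Cav1, Ncdn, Bsg and Slc2a1 had log2 fold changes of 2.20, 1.19, 0.95, 0.85 and 0.72 and did not pass. Of these, only the glucose transporter gene Slc2a1 had opposite directions in the rounds, at 456 against 149 in round 1 and 56.9 against 71.9 in round 2.

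The cartilage transcription factor Sox9 was not told apart from its level in comparison cells. It was at 5970 and 1090 in nucleus pulposus-like cells against 2370 and 1966 (log2 fold change 0.22 ± 0.74, edgeR adjusted p = 0.997), so the rounds had opposite directions. In round 1, 129 of its 249 UMIs came from 1 cell. Its partners Sox5 and Sox6 had log2 fold changes of -0.65 and 0.18 and did not pass. The 7 genes with too few UMIs to test were Noto, Shh, Foxa1, Foxa2, Foxj1, Car12 and Cdh2. Noto, Foxa1 and Car12 had no UMI in the 101 cells, and Shh, Foxa2 and Foxj1 had 1 UMI each. Cdh2, the adhesion protein N-cadherin, had 7 and 3 UMIs in the control cells against 0 and 4 in comparison cells. The hedgehog list of 9 genes had 3 with enough UMIs, and none passed (edgeR 0, DESeq2 0, and 0 at an unadjusted p under 0.05).

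The other named higher genes are given one by one, with no group read from them. Sostdc1 (chr12:36314139-36318452, plus), a secreted antagonist of BMP and WNT signals, had 12 and 10 UMIs in 4 and 8 nucleus pulposus-like cells and none in the 448 comparison cells. Set against a floor of 3 UMIs over the comparison group, it was at least 106-fold higher (edgeR adjusted p = 1.50e-07), but it was not called with DESeq2. Rab38, a small GTPase of lysosome-related organelles, had 6 and 9 UMIs against none and was at least 72.4-fold higher (edgeR adjusted p = 5.68e-08). Tmem163, a zinc transporter, and Plb1, a phospholipase, had log2 fold changes of 7.06 ± 0.92 and 6.61 ± 0.82. Each was found in 3 cells of round 1, and in 13 and 9 cells of round 2. Lyst, a regulator of lysosome size, was at 1870 and 152 against 8.12 and 10.1, and 35 of its 78 UMIs in round 1 came from 1 cell. Angptl1, an angiopoietin-like secreted protein, Cck, the peptide hormone cholecystokinin, and Nrn1, the neurite-growth protein neuritin, had log2 fold changes of 5.97, 5.79 and 5.94. They were called on 20, 20 and 18 UMIs in all nucleus pulposus-like cells. S100a3, a calcium-binding protein, was at 1007 and 47.4 against 9.47 and 1.44, with 26 of its 42 UMIs of round 1 in 1 cell. Krtdap, a keratinocyte secreted protein, rested on 3 cells, of which 1 held 26 of the 38 UMIs.

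The genes most like the rule genes in pattern were ranked over the control cells as the share of UMI-holding cells that were nucleus pulposus-like, against 8.61% of all control cells. Rab38 led with 11 of 12 cells, followed by Tmem163 with 16 of 18, Sostdc1 with 12 of 14, Plb1 with 12 of 15 and Cox8b, a respiratory chain subunit, with 8 of 10. Krt19, Krt8 and Hopx were more widely held, at 37 of 58, 60 of 96 and 45 of 75 cells.

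**Figure D4:**
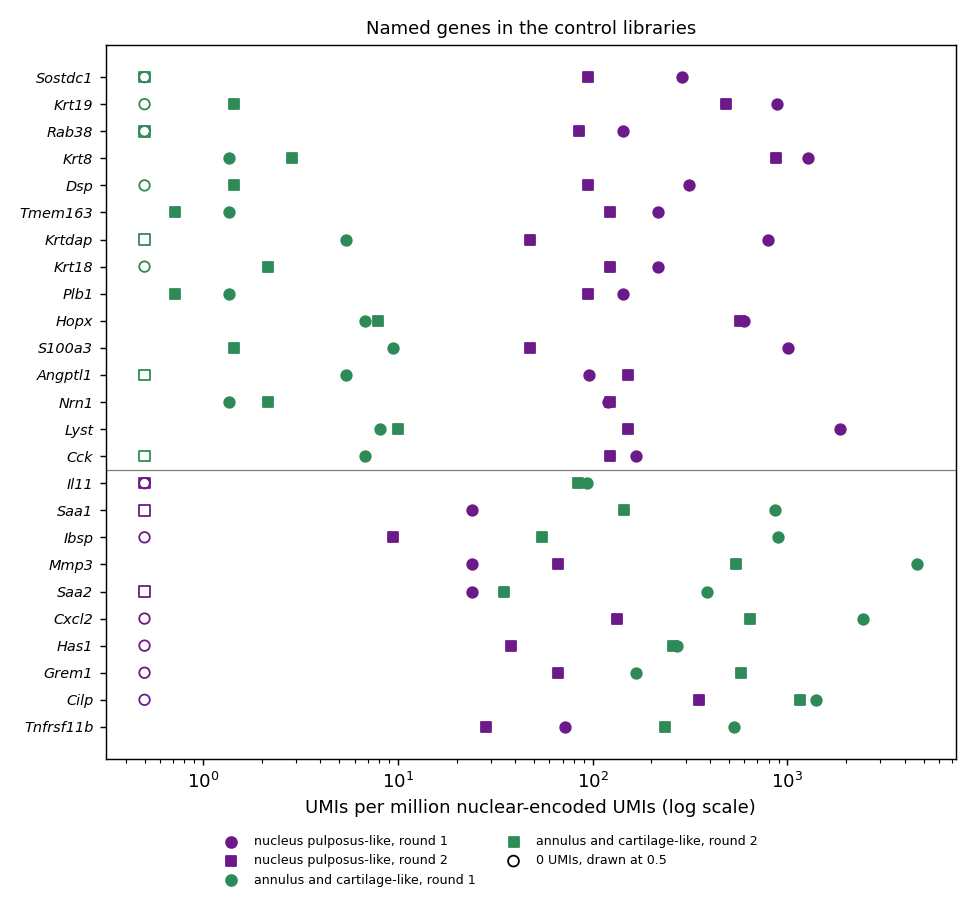
Levels of the 25 named genes (CPM, UMIs per 1000000 nuclear-encoded UMIs, log horizontal axis) in nucleus pulposus-like cells and in annulus and cartilage-like cells of control rounds 1 and 2, with genes higher in nucleus pulposus-like cells above the line and lower ones under it. Open symbols are 0 UMIs and are drawn at 0.5. Krt8 stands at 1271 and 872 in nucleus pulposus-like cells against 1.35 and 2.88.

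Of 15 inflammatory genes, 11 were tested and 5 were lower in edgeR, against 0.187% of all genes. DESeq2 called 2 of them, Saa1 and Mmp3. The list's median log2 fold change was -2.93, and 2 of the 11 had values above 0. Mmp3, the matrix metalloproteinase stromelysin, was at 24.0 and 66.4 in nucleus pulposus-like cells against 4618 and 543 in comparison cells (log2 fold change -4.75 ± 0.94, edgeR adjusted p = 0.00149). Saa1, an acute-phase serum amyloid, was at 24.0 and 0 against 860 and 145 (-5.82 ± 1.03, edgeR adjusted p = 0.000235), and Saa2, which is outside the list and whose sequence is close enough to Saa1 to split reads, was lower by -4.50 on the log2 scale. Cxcl2, a neutrophil-attracting chemokine, was at 0 and 133 against 2444 and 640 (-3.86 ± 0.88, edgeR adjusted p = 0.00897). Lcn2, the acute-phase lipocalin, was at 24.0 and 56.9 against 478 and 290. The cytokine gene Il11 had no UMI in nucleus pulposus-like cells and 186 in comparison cells, and was at least 4.28-fold lower. Its call was lost with DESeq2, without the library block, with at least 3 of the 5 genes required and without the shared barcodes. It was also lost with the 16 cells holding annulus genes left out and with the deepest cell of each library left out. Ccl7, a monocyte-attracting chemokine, was at 1223 and 0 against 356 and 90.6 and did not pass (log2 fold change 0.06), and its 51 UMIs in nucleus pulposus-like cells were all in round 1. Il6, a cytokine, had 1 and 2 UMIs and did not differ beyond the test (log2 fold change 0.10). The mitochondrial share of the summed UMIs, 19.5% and 33.7% against 2.85% and 7.25%, moved with all of these genes, and its part in them was not tested.

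The other named genes that were lower are given one by one. Ibsp, the bone sialoprotein, was at 0 and 9.48 against 889 and 54.6 (log2 fold change -5.37 ± 1.13, edgeR adjusted p = 0.00303). Has1, a hyaluronan synthase, was at 0 and 37.9 against 271 and 259 (-3.33). Grem1, a secreted BMP antagonist, was at 0 and 66.4 against 168 and 579 (-3.30), and Tnfrsf11b, the RANK ligand decoy osteoprotegerin, at 71.9 and 28.4 against 531 and 234 (-2.99). Cilp, a cartilage matrix protein, was at 0 and 351 against 1402 and 1166 (-3.07), and it was not called without the shared barcodes. Mmp3 and Saa1 were called lower with DESeq2 as well, and the other 8 named lower genes were not. Without the library block only 1 gene was called lower over all genes, against 30 higher.

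Collagens and proteoglycans of the fibrous annulus were called or not depending on which cells were counted. Under the reported rule, all 13 fibrous matrix genes tested of 16 had fold changes under 0, with a median log2 of -1.22, and none passed in edgeR. DESeq2 called Col1a1 alone, and 4 had an unadjusted p under 0.05 in edgeR. With at least 3 of the 5 genes required, which left 15 and 38 cells, 7 of the 13 were lower, against 1.5% of the 5604 genes tested. Mitochondrial UMIs were 14.3% and 49.2% of the summed UMIs of these cells, against 2.85% and 7.25% for the comparison cells, and 11 of the 15 and 37 of the 38 had 25% or more, whose part in the result was not tested. Col1a1, the main fibrillar collagen, was then at 123 and 60.4 against 1662 and 1876 (log2 fold change -4.53 ± 1.00, edgeR adjusted p = 0.00055). Col3a1 had no UMI in these cells against 1166 in comparison cells and was at least 12.0-fold lower. Dcn was at 30.8 and 60.4 against 6439 and 6751 (-7.39 ± 1.38), and Col1a2, Col5a2, Bgn and Sparc were lower as well. Over all genes this version called 145 genes, or 2.59%, of which 61 (1.09%) were higher and 84 (1.5%) lower, and its median log2 fold change was -0.50. It kept 54 of the 60 reported calls that it could test. Leaving out only the 16 cells with annulus or cartilage genes gave 154 calls, or 2.84%, with 63 higher (1.16%) and 91 lower (1.68%), and called 7 of the 13 fibrous genes lower. Leaving those cells out fixes part of this direction, since they were set aside for holding annulus genes. The rule of at least 3 genes also drops 15 of the 16, among them all 14 of round 2, which held 601 of the 607 Dcn UMIs there, so the same holds for it. The reported cells were also set against only those comparison cells whose depth lay between the 5th and the 95th percentile of theirs. These 130 and 174 cells had median depths of 3193 and 3922 UMIs and were still deeper than the nucleus pulposus-like cells, at 1241 and 1683. In this version edgeR called 87 of 3876 genes, or 2.24%, with 63 higher (1.63%) and 24 lower (0.619%). Col1a1 was then called lower, at -2.28 on the log2 scale (edgeR adjusted p = 0.0116), and was the only one of 12 fibrous genes tested to pass.

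Cartilage matrix genes also had values under those of the comparison cells without passing under the reported rule. Of 16 such genes, 11 were tested, all with fold changes under 0 and a median log2 of -0.95, and none passed in edgeR, with 3 at an unadjusted p under 0.05, while DESeq2 called Cytl1. Acan, the gene of aggrecan, was at 2325 and 493 against 1182 and 1222, with opposite directions in the rounds (log2 fold change -0.19 ± 0.67, edgeR adjusted p = 0.997). In round 1, 62 of its 97 UMIs came from 1 cell. Col2a1 was at 504 and 199 against 861 and 1653 (-1.95, edgeR adjusted p = 0.26). With at least 3 of the 5 genes required, Cytl1, a cytokine-like cartilage protein, and Vcan, the proteoglycan versican, were lower, by -6.70 and -4.81 on the log2 scale. Both were also called lower against the comparison cells limited in depth, at -2.72 and -2.35. The rule of at least 3 genes drops cells holding annulus or cartilage genes, so part of its direction here was fixed as well.

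Signalling genes followed the same dependence. Of 21 ligands and antagonists, 14 were tested and 1, Grem1, was lower, against 0.187% of all genes, with a list median of -1.39. Tgfb2, a TGF-beta ligand, was at 1127 and 56.9 against 92.0 and 34.5 and fell just short of the threshold (log2 fold change 2.36 ± 0.64, edgeR adjusted p = 0.0563). Against comparison cells limited in depth it was called higher, at 2.31 ± 0.61 (edgeR adjusted p = 0.00933), while Grem1 and Wif1, a WNT inhibitor, were called lower, at -3.99 and -2.15, against 0.619% of all genes, and 10 of the 11 genes then tested had values under 0. With at least 3 of the 5 genes required, Tgfb2 had 40 and 1 UMIs and did not pass (log2 fold change 2.26, edgeR adjusted p = 0.253). Under the reported rule 21 of its 47 UMIs in round 1 came from 1 cell. With at least 3 of the 5 genes required, Bmp2, Wif1 and Grem1 had no UMI in nucleus pulposus-like cells and were at least 12.3-fold, 10.6-fold and 9.54-fold lower, and Ccn2 was lower by -3.16. These were 4 of the 13 genes tested, against 1.5% of all genes. Nearly all cells holding annulus or cartilage genes are dropped by that rule, so part of this direction was fixed, as for the fibrous genes. Bmp2 and Wif1 were not called under the reported rule (edgeR adjusted p = 0.48 and 0.442). Slc6a12, the betaine transporter used by cells under osmotic load, was higher with at least 3 of the 5 genes required (log2 fold change 5.06, edgeR adjusted p = 0.00017). It had 12 and 1 UMIs against 2 and 6, mostly from round 1, and too few to be tested under the reported rule. Of the 11 osmotic and vacuole genes tested in this version, 7 had values under 0, with a median of -1.31. Slc6a6, another transporter gene of that list, was called lower there (-3.28, edgeR adjusted p = 0.0208).

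Energy and stress genes had no call under the reported rule. None of the 19 glycolysis and hypoxia genes tested passed in edgeR or DESeq2, with 4 at an unadjusted p under 0.05 and a median log2 of 0.03. Gapdh was at 2421 and 1289 against 964 and 479 (log2 fold change 1.35, edgeR adjusted p = 0.651), and Ldha, a lactate dehydrogenase, was at 791 and 986 against 703 and 725. None of the 21 immediate early and heat shock genes passed in edgeR or DESeq2, with 1 at an unadjusted p under 0.05 and a median of -0.20. The same held for 18 antioxidant genes (5 at an unadjusted p under 0.05, median -0.65), 10 osmotic and vacuole genes (1, median -0.23), 10 protease inhibitor genes (5, median -1.09) and 5 long nuclear RNAs (0, median -0.10). With at least 3 of the 5 genes required, 4 of 17 antioxidant genes, 2 of 10 inhibitor genes, 1 of 11 osmotic and 1 of 19 glycolysis genes tested were called lower. Under that rule 1.5% of all genes were called lower and the median over all genes was -0.50. Dropping cells that hold annulus or cartilage genes can fix part of this direction too. Against the comparison cells limited in depth, Hmox1, a heme oxygenase, was called lower, at -2.49, and so was Slpi, a secreted protease inhibitor. They were 1 of 17 antioxidant and 1 of 10 inhibitor genes, against 0.619% of all genes. Slpi had no UMI in the nucleus pulposus-like cells, so its fitted fold change is not given. By the floor of 3 UMIs it was at least 3.34-fold lower than in all comparison cells, where it was not called (edgeR adjusted p = 0.108).

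**Figure D5:**
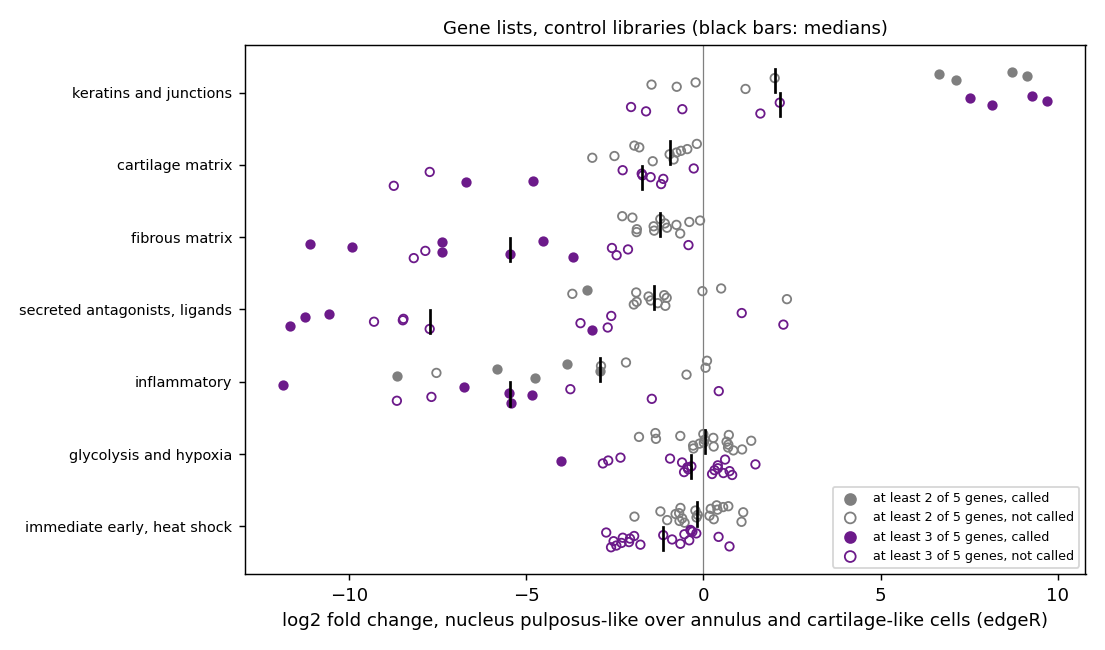
Log2 fold change (edgeR) of nucleus pulposus-like over annulus and cartilage-like control cells for each tested gene of 7 lists, in grey for the reported rule and in purple with at least 3 of the 5 genes required. Filled points passed at an adjusted p under 0.05 and black bars are list medians. The fibrous matrix list lies at a median of -1.22 with no filled point under the reported rule and at -5.45 with 7 filled points under the stricter one.

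Markers of other cell types were looked for in the 101 cells. The 7 hepatocyte and 6 B or plasma cell markers had no UMI in them. Skeletal muscle markers had 49 UMIs in control round 2, of which 39 were in 1 cell, and none in the other 3 libraries. Macrophage markers had 5 and 3 UMIs and endothelial markers 3 and 4 UMIs in the control libraries, and none in the injured ones. Mural markers had 6 and 16 UMIs, and among them Acta2, smooth muscle actin, was higher than in comparison cells, at 48.0 and 66.4 against 4.06 and 3.59 (log2 fold change 4.01 ± 0.71, edgeR adjusted p = 0.000269). This rested on 9 UMIs against 8, and DESeq2 called none of the 4 mural genes it tested (2 at an unadjusted p under 0.05). Myh11, smooth muscle myosin, had 4 UMIs in round 1 and Tagln, a smooth muscle actin-binding protein, 8 in round 2, and 1 and 2 cells held at least 2 mural markers. Rgs5, Notch3 and Mcam were at 0. The epithelial claudin Cldn4 had 23 UMIs, all in 1 cell of control round 1, and Krt5, Krt14, Krt15, Cldn7 and Cdh1 were at 0.

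The 6 injured cells mostly had a high mitochondrial share and few UMIs of the marker genes. The 4 of injured round 1 had 857 to 1978 UMIs and 46.3% to 76.3% mitochondrial UMIs. They held 19 Car3 UMIs in all, 2 of T, 3 of Inmt, 2 of Serpina1e, 3 of Hopx and 1 of Krt8, and none of Krt19. In injured round 2, 1 cell had 5207 UMIs, 1.77% mitochondrial UMIs and 48 UMIs of Acan, with 1 UMI each of Car3 and Serpina1e and none of T, Krt8, Krt19 or Hopx. The other had 518 UMIs, 21.04% mitochondrial UMIs, 15 UMIs of Car3 and 2 of Krt8. The first of these thus met the rule on 2 single UMIs, and Car3 was at 372 CPM in the free RNA of its library.

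The same genes were then compared between control and injured discs over all cells of a library, with the cells described above inside the sums. Here a level means CPM over the UMIs of all genes, mitochondrial ones included. Car3 was at 560 and 611 in control rounds 1 and 2 against 5.04 and 4.8 in injured rounds 1 and 2. Serpina1e was at 78.5 and 61.0 against 0.315 and 0.288, and T was at 59.6 and 18.7 against 0.472 and 0. These genes chose the cells, so their calls are not used as results. Krt19 was at 48.7 and 32.7 against 0.787 and 0.960 and fell by 5.42 ± 0.50 on the log2 scale (edgeR adjusted p = 0.0318, or 0.00016 with round as a block). The nucleus pulposus-like cells held 37 of its 49 UMIs in control round 1 and 51 of its 68 in control round 2. Its direction was thus largely set by the choice of cells, and the call is a description. Krt19 was 1 of the 4 genes called among 11779, or 0.034%, all 4 of them lower. The others were Car3 and Serpina1e, which chose the cells, and the immunoglobulin gene Ighg3, so nothing is read from this count. With the round block 408 genes were called, or 3.46%, and 234 of these, or 1.99%, were lower. The median mitochondrial shares over these cells were 2.60% and 6.00% in control and 2.70% and 4.44% in injured libraries.

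The 54 genes that were higher in nucleus pulposus-like cells were then read in the same sums. They were chosen for high counts in cells found almost only in the control libraries, so the direction is largely fixed by the choice and the values are a description. Of the 54, 45 had a negative log2 fold change, or 83.3%, against 51.7% of all genes, with medians of -0.90 and -0.02. Of these 54, 1 was called lower without and 15 with the round block, against 0.034% and 1.99% of all genes. For the 15 largest, all 15 had negative values with a median of -2.54, and 7 were called lower with the round block. Sostdc1 was at 12.9 and 5.28 CPM in control rounds 1 and 2, against 0 in both injured libraries. Krt8 was at 121 and 97.5 CPM in control rounds 1 and 2 against 10.54 and 2.30 in the injured libraries, and did not pass (edgeR adjusted p = 0.156, or 0.000484 with the round block). Hopx, at 33.8 and 47.1 in control rounds 1 and 2 against 12.4 and 24.96, had a log2 fold change of -1.05 ± 0.46 (edgeR adjusted p = 0.676, or 0.0651 with the round block).

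Taking the 101 cells out of the sums removes the cells on which these genes were chosen. Of the 49 genes that could then be tested, 28 had negative values and the median was -0.14, beside 6097 of all 11683 genes and a median of -0.03. Without the round block, no gene was then called in edgeR over 11683 genes, with 868 at an unadjusted p under 0.05. Krt19 was at -3.48 (edgeR adjusted p = 0.21), Krt8 at -3.36, Hopx at 0.37 and Dsp at 0.14. With the round block, added after seeing the data, 572 genes were called, or 4.9%, with 271 higher (2.32%) and 301 lower (2.58%). Of the 49 genes, 5 were then called lower. Krt19 was at -3.43 (edgeR adjusted p = 0.00678) and Krt8 at -3.63 (edgeR adjusted p = 0.000244), both called lower in these sums. The rule gene Car3 was still called lower there too, at -4.62 (edgeR adjusted p = 2.04e-05). Cells with exactly 1 of the 5 genes and any free RNA in the cells stayed in these sums, and their part in these calls was not tested. Hopx and Dsp, at 0.42 and -0.08, were not called. The matrix transcription factor Sox9, which annulus cells also express, was at 2252 and 1537 CPM in the control against 1443 and 927 in the injured libraries with the 101 cells inside the sums, and its log2 fold change was -0.64 with them (edgeR adjusted p = 0.808) and -0.60 without them (edgeR adjusted p = 0.839). Cd24a and Bsg, with log2 fold changes of 0.20 and 0.21 with the cells and 0.33 and 0.27 without them, were not called either.

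Promoters of the genes higher in these cells were searched for the core of the T-box binding site, since T is the factor that marks them. Of the 5 rule genes and the 15 named higher genes, 15 had promoters in the RefSeq table (GRCm38.p6, 250 bases before to 50 after a gene's start), 20 promoters in all. GGTGTG or its other strand CACACC was in 2 of the 20 promoters, of 2 genes, while 19.1% of all 32851 promoters held it. The match is a description and no evidence of binding, and the promoter of T itself held none. The 2 promoters that held it are shown with the motif in capitals, 5′ to 3′ on the gene's strand, the desmoplakin promoter at chr13:38151044-38151343 (plus) and a Plb1 promoter at chr5:32353330-32353629 (plus), inside the gene (chr5:32232708-32366520). The other Plb1 promoter of the table, nearer the gene's start at chr5:32238834-32239133, held none.
Dsp: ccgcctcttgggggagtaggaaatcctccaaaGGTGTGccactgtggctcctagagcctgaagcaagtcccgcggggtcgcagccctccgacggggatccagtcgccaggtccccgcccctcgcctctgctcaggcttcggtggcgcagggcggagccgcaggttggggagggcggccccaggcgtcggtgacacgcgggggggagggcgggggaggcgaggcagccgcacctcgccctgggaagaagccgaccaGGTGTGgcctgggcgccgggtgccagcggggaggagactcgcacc
Plb1: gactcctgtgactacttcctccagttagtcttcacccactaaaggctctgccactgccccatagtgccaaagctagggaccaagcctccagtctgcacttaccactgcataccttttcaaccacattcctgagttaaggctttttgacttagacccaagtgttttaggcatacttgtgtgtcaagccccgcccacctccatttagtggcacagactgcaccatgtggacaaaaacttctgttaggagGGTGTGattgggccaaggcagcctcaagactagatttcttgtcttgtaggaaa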

How the data were processed

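Discs were captured with the 10x 3' chemistry, per the labels' protocols. The authors deposited raw UMI counts for each gene and barcode. Cell Ranger and mm10 are named in the submitters' processing notes, and the file headers give version 6.0.0 for control round 1 and version 4 for the others. No column without a sample was used. Depth set the precision: libraries held 1114210, 9891258, 8943537 and 16972879 UMIs (control rounds 1 and 2, then injured), and their nucleus pulposus-like cells 52786, 161814, 5957 and 5725. Intervals and floors (3 counts) cover counting error only.

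Counts were summed with Python 3.11.15. Sums entered a two-sided edgeR (version 4.0.16, R version 4.3.3) quasi-likelihood fit (default low-count filter, TMM, Benjamini-Hochberg adjustment, called under 0.05); DESeq2 1.42.0 was an alternative. The scripts were tested on simulated data. For the comparison with annulus and cartilage-like cells, 28.6% of simulated log2 changes of 2 and 83.8% of those of 4 were called. A gene that did not pass there can therefore still differ. Members, lists and tests were chosen with earlier results of these data known, and no doublet caller was run. Named genes were the 15 largest increases and 10 largest decreases among called genes with the same direction in both libraries and at least 10 UMIs, the notochord list, and 2 to 4 examples of other lists with many UMIs; others were chosen after their values were seen. Rounds pair control and injured discs of the same animals, per the labels; deviations from group means correlated at 0.514 over 11779 genes. Positions are from GENCODE M21. Alternatives were other filters, comparison cells, cell rules, mitochondrial limits, and each library left out.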

Additional observations from a re-analysis of the deposited data

How the results depend on the processing

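The control minus injured difference in share, 7.80 percentage points, was 4.52 with at least 3 of the 5 genes, 5.62 at 500 genes, 1.91 under 25% mitochondrial UMIs, 10.04 without shared barcodes, 5.87 at 500 UMIs per cell and 6.47 to 9.13 with 1 library left out. The 65 genes called against annulus and cartilage-like cells became 31 with no replicate block (30 higher, 1 lower), 145 with at least 3 of the 5 genes and 154 without the cells holding annulus genes, the last chosen after seeing the data. Without the shared barcodes 57 were called, 56 of them among the 65. Leaving out the deepest cell of each library, chosen likewise, gave 83 calls. DESeq2 gave 47 and moved the median log2 fold change of shared genes from -0.09 to -0.29. Of the named genes' values with a test, 219 kept direction and side of the threshold, 24 kept direction only and 0 reversed. With 1 control library no residual degrees of freedom remained. All 50 single-library values kept their direction, but this was fixed in advance, since named genes had to share direction in both libraries. Under 25% mitochondrial UMIs the test was not run, since control round 1 had 6 cells, under the minimum of 10. The 4 genes called between injured and control libraries became 408 with the replicate block, which pairs the rounds, 120 with DESeq2, 3 without shared barcodes (the other could not be tested), 303 with no filter on low counts, and 0 under 25% mitochondrial UMIs (877 at an unadjusted p under 0.05 in edgeR) or without the nucleus pulposus-like cells. Without these cells but with the replicate block, chosen after seeing the data, 572 were called. With 1 library left out and the cells kept, the calls ranged from 49 to 186: 186 without control round 1, 92 without control round 2, 49 without injured round 1 and 65 without injured round 2, with the lone library assumed to vary like the other group. Angptl1, at -0.07, reversed to 0.072 with no filter on low counts, 1.00 under 25% mitochondrial UMIs, 1.51 without the cells and 1.48 without them with the block, and ranged from -5.47 to 0.89 with 1 library left out, above 0 without control round 2 (0.06) and without injured round 1 (0.89). Hopx and Dsp reversed to 0.37 and 0.14 without the cells, and Hopx to 0.42 with the block as well. The cause of these changes was not tested. Depth limits all of this: most calls rest on under 100 UMIs.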
